A study of Mus musculus with 12 samples.

Results

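The growth hormone, SOCS and IGF1 axis of the liver was followed through 10 genes in knockout and wild-type mice given dioxin or its vehicle. The genes were Ghr, Stat5b, Cish, Socs1, Socs2, Socs3, Igf1, Igfals, Igfbp1 and Bcl6, all 10 of which were measured, among 14860 genes that had a probe set with a single symbol. Where a gene had several probe sets, the one with the highest average level over the 12 arrays was taken. Tiparp encodes an ADP-ribosyltransferase that the aryl hydrocarbon receptor (AhR) switches on and that in turn restrains the receptor, and TCDD is a potent AhR ligand. The livers came from Tiparp -/- mice given TCDD, Tiparp -/- mice given corn oil, Tiparp +/+ mice given TCDD and Tiparp +/+ mice given corn oil, with 3 arrays in each of these 4 groups. All mice were 8 weeks of age and of a mixed C57BL/6;129Sv background, and TCDD was injected intraperitoneally at 30 µg per kg of body weight. The labels give no sex, feeding state, time of day or time between dose and collection, and do not say how the Tiparp allele was made. Values are log2 expression levels from Affymetrix exon arrays, so that a difference of 1 is a factor of 2 in signal.

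Growth hormone binds its receptor on hepatocytes, the receptor-bound kinase JAK2 phosphorylates STAT5, and STAT5 enters the nucleus and switches genes on. Among its targets are Igf1, the main circulating growth factor that the liver makes in response, and the feedback inhibitors Cish and Socs2. STAT5 also represses Bcl6, a transcriptional repressor that recognises a similar DNA sequence. The liver sees growth hormone in pulses whose pattern differs between the sexes and with feeding, and the mRNA of some of these target genes follows the pulses.

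The letters that STAT5 recognises are shown first, because Cish and Bcl6 are among its targets named above. RefSeq's promoter table (GRCm38.p6, windows of 300 bases around each annotated gene start) held 14 windows for 9 of the 10 genes, all but Socs2. The motif TTCNNNGAA, which reads the same on both strands, was found in 6 of these windows, belonging to 4 genes (Cish, Socs3, Igfals and Bcl6), against 8.30% of 32851 windows of all genes. It was in a window of 9.55% of all genes. The windows of Ghr, Stat5b, Socs1, Igf1 and Igfbp1 did not hold it. In Cish a pair of motifs lay at positions 1 and 12 from the annotated start (chr9:107296654-107296683, plus strand), and in Socs3 a single motif began at position -154 (chr11:117969501-117969530, minus strand). Bcl6 held a motif at -118 of one start (chr16:23988951-23988980, minus strand) and 3 at another start, of which that at -168 (chr16:23981432-23981461, minus strand) and that at -88 (chr16:23981352-23981381, minus strand) are shown. Igfals held a motif at -236 of its first start, which is not shown, and a motif at -58 of its second start (chr17:24878163-24878192, plus strand). Capitals mark the motif.
Cish: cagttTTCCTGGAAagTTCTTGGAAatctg
Socs3: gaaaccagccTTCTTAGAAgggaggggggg
Bcl6, first start: agcaaattagTTCTCAGAAttccagaggcc
Bcl6, second start, -168: aggccgcggcTTCCTGGAAagttacttctc
Bcl6, second start, -88: atcgactacgTTCCGGGAAtgagagggctg
Igfals: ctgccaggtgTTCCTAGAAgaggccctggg

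The core that AhR recognises, GCGTG on either strand, was found in 5 of the 14 windows, belonging to 4 other members, Ghr, Stat5b, Igf1 and Igfbp1. It was in 32.39% of all windows and in a window of 35.15% of all genes, so the members stood near the background. No window of a member held both motifs. The sites of Igfbp1 (chr11:7197701-7197730, plus strand, position -74, the core on the opposite strand as CACGC) and of Stat5b (chr11:100822773-100822802, minus strand, position -220) are shown because these members were called under TCDD in the knockout. A match describes the letters in these windows and not binding.
Igfbp1: ctggggtcctagCACGCtgccctgacaatc
Stat5b: gccatttagaaaGCGTGaggctttatgatc

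The arrays were checked against their labels. Tiparp averaged 6.81 in knockout TCDD livers and 6.29 in knockout corn oil livers, against 10.52 in wild-type TCDD and 7.39 in wild-type corn oil livers, and the labels and annotation do not say which part of the transcript the Tiparp probe set reads. The AhR target Cyp1a1 averaged 13.31 under TCDD against 8.34 under corn oil in the knockout, and 13.24 against 6.32 in the wild-type. The 6 measured hepatocyte markers of 10 listed had mean levels between 12.88 and 13.06 on every array, and Alb read 13.88 to 13.97. The Y-linked genes Eif2s3y (9.32 to 9.73) and Kdm5d (7.64 to 8.29), looked at after the lists were set, were within a narrow range on all 12 arrays. The knockout corn oil arrays scored highest on the first principal component (23.5% of the variance), at 45.8, 36.7 and 17.2. Knockout TCDD replicates 1 and 3 scored lowest, at -30.5 and -22.4, and replicate 2 was at -9.24. Wild-type arrays lay from -11.7 to 7.99. Knockout corn oil replicate 3 was thus nearer to wild-type corn oil replicate 3 (7.99) than to its own group. Results that rest on the knockout corn oil arrays are given with the comparison of knockout TCDD with wild-type corn oil. Its difference of means leaves them out, but its SE and adjusted p come from the fit on all 12 arrays. A further measured difference between arrays was an index of clock genes, the mean of Dbp, Tef, Nr1d2 and Per3 minus the mean of Arntl, Npas2, Clock and Nfil3. It was -1.79, 0.57 and -1.41 in knockout TCDD, -0.28, 1.74 and 2.01 in knockout corn oil, -0.52, -0.31 and 1.80 in wild-type TCDD and -1.20, -0.77 and -1.78 in wild-type corn oil livers.

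The 10 genes ranged from steady to variable, as the plot of members by array shows. Ghr and Igf1 were among the most highly read genes of the array, with means of 12.43 and 12.41 over the 12 arrays, and spanned only 0.49 and 0.46 from the lowest to the highest array. Socs1 spanned 0.42 around a mean of 8.21. Stat5b (1.66) and Socs3 (1.55) lay in between. At the other end, Socs2 spanned 4.92, Igfbp1 4.06, Bcl6 2.94, Cish 2.82 and Igfals 2.26. Much of the spread of these last genes lay between mice of the same group. The pooled within-group SD was 1.05 for Socs2, 0.83 for Igfbp1, 0.77 for Bcl6, 0.58 for Igfals and 0.47 for Cish, against a median of 0.14 over all genes. Ranked among 14860 genes, these 5 within-group SDs were at percentiles 99.9, 99.7, 99.7, 98.7 and 97.3, while those of Igf1 (50.3), Ghr (42.4) and Socs1 (21.4) were ordinary. With 3 arrays a group and spreads of this size, a Socs2 difference of 2.59 between genotypes did not pass the test.

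**Figure D1:**
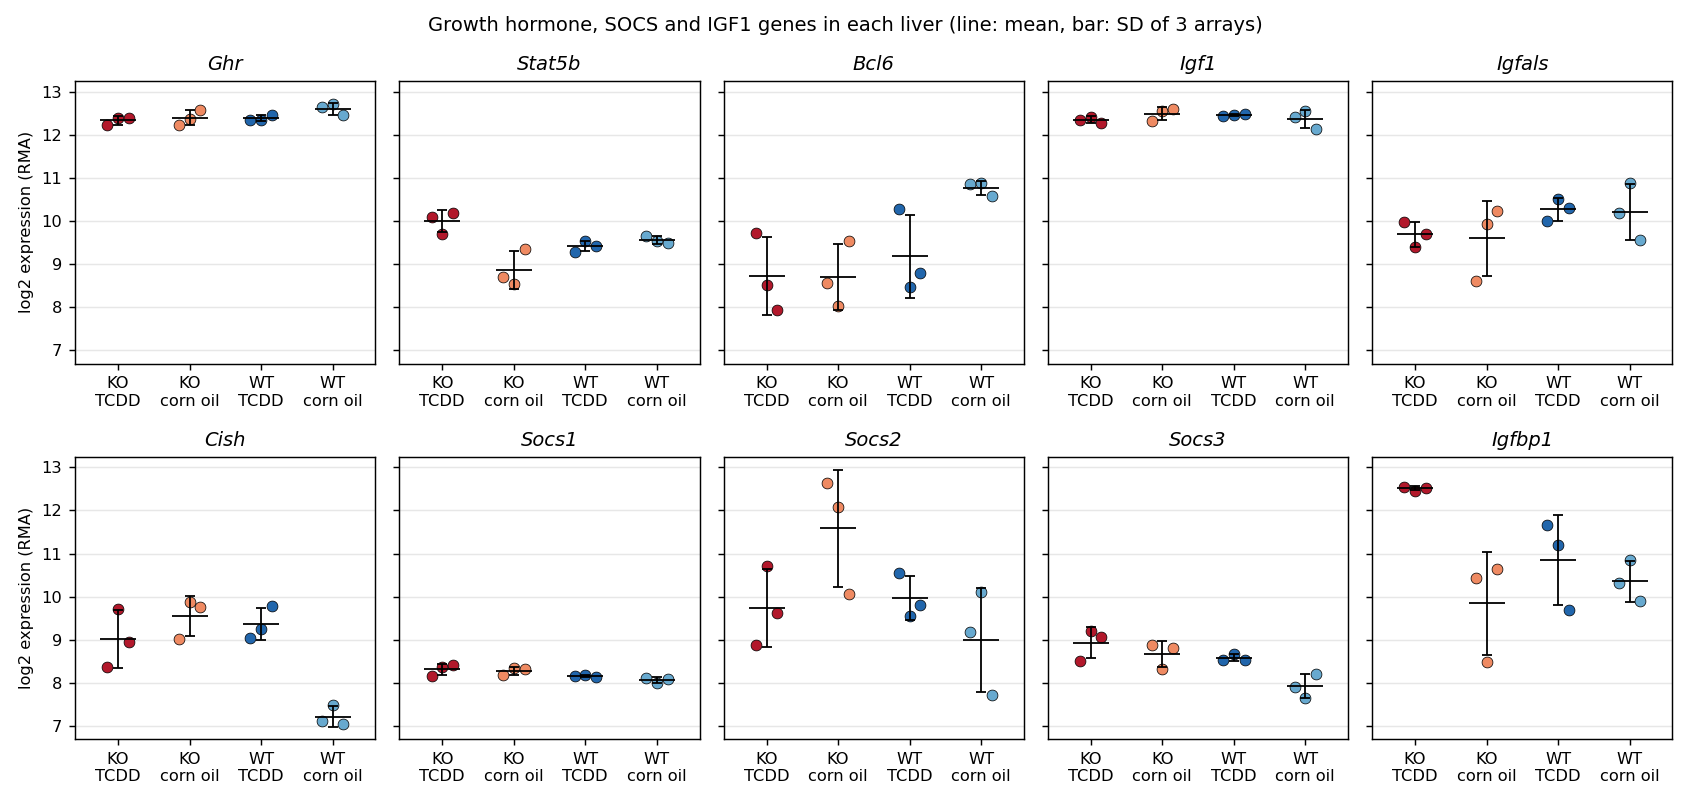
Log2 expression of the 10 genes (y axis, RMA scale) on each array, with knockout TCDD, knockout corn oil, wild-type TCDD and wild-type corn oil groups from left to right (x axis). Points are single arrays, horizontal lines are means and bars are SDs of 3 arrays. Cish reads at least 8.38 in every array of the other groups, against 7.06 to 7.49 in wild-type corn oil livers, and Igfbp1 reads 12.46 to 12.54 in knockout TCDD livers.

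The receptor itself differed little. Ghr, the growth hormone receptor, read 12.22, 12.39 and 12.39 in knockout TCDD livers, 12.23, 12.37 and 12.57 in knockout corn oil livers, 12.34, 12.34 and 12.46 in wild-type TCDD livers and 12.63, 12.71 and 12.45 in wild-type corn oil livers. The wild-type corn oil mean was the highest, and the only groups whose arrays did not overlap were knockout TCDD and wild-type corn oil. That difference was -0.26 ± 0.11 (SE; 95% interval -0.50 to -0.03), and it did not pass the test (limma adjusted p = 0.248). In bulk liver, fewer cells of a type and less RNA per cell cannot be told apart, here or below.

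Stat5b, the STAT that carries most of the growth hormone signal in mouse liver, separated the knockout groups. It read 10.09, 9.70 and 10.19 in knockout TCDD livers, against 8.71, 8.53 and 9.36 in knockout corn oil livers. All 3 TCDD arrays were above all 3 corn oil arrays, and the rise of 1.13 ± 0.20 (SE; 2.18-fold; 95% interval 0.68 to 1.57) passed the test (limma adjusted p = 0.0126). In wild-type livers Stat5b read 9.29, 9.54 and 9.43 with TCDD and 9.66, 9.53 and 9.49 with corn oil, which is an overlapping range, and the difference of -0.14 ± 0.20 (SE) did not pass (adjusted p = 0.946). The knockout corn oil arrays were all below the wild-type corn oil arrays (-0.69 ± 0.20, SE; adjusted p = 0.0987), and the knockout TCDD arrays all above the wild-type corn oil arrays (0.43 ± 0.20, SE; adjusted p = 0.321), neither of which passed. The rise in the knockout was therefore measured between the lowest and the highest of the 4 group means. The difference between the TCDD effects of the genotypes was 1.27 ± 0.28 (SE; 95% interval 0.64 to 1.89) and did not pass (adjusted p = 0.0973). Without knockout TCDD replicate 3 the rise was 1.03 and not called (adjusted p = 0.0578), and without knockout corn oil replicate 3, the highest of its group, both the deficit under corn oil (-0.94; adjusted p = 0.00918) and the difference between the TCDD effects (1.51; adjusted p = 0.0176) were called. It was 1.11 and not called with the clock index as a covariate (adjusted p = 0.0744), and not called when only the knockout arrays were fitted (adjusted p = 0.108).

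Stat5a, the close paralogue that neighbours Stat5b, was lower in the knockout under corn oil. It read 8.33, 8.42 and 8.43 in knockout corn oil livers, against 8.98, 8.82 and 9.01 in wild-type corn oil livers, a fall of 0.54 on the log2 scale (log2 change -0.54 ± 0.11, SE; adjusted p = 0.0456). With TCDD it read 8.93, 8.51 and 8.83 in knockout livers and 8.70, 8.72 and 8.54 in wild-type livers, where the groups overlapped. Knockout TCDD minus wild-type corn oil was -0.18 ± 0.11 (SE; adjusted p = 0.465). The annotation does not say whether the probes of Stat5a and Stat5b tell the paralogues apart.

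Cish, a SOCS family protein that blocks STAT5 docking on cytokine receptors, was low in wild-type corn oil livers alone. It read 8.38, 9.72 and 8.95 in knockout TCDD livers, 9.01, 9.88 and 9.77 in knockout corn oil livers, 9.05, 9.26 and 9.78 in wild-type TCDD livers and 7.12, 7.49 and 7.06 in wild-type corn oil livers. No array of the first 3 groups overlapped with wild-type corn oil, and those 3 groups overlapped with each other. Under corn oil Cish was higher in the knockout by 2.33 ± 0.34 (SE; 5.03-fold; 95% interval 1.57 to 3.09; adjusted p = 0.0249), and knockout TCDD livers were above wild-type corn oil livers by 1.79 ± 0.34 (SE; 3.47-fold; adjusted p = 0.0251). In wild-type livers TCDD minus corn oil was 2.14 ± 0.34 (SE; 4.41-fold; 95% interval 1.38 to 2.90), almost the same size, and just missed the test (adjusted p = 0.0672). These 3 differences share the wild-type corn oil arrays and are not independent. In the knockout the difference of -0.54 ± 0.34 (SE; adjusted p = 0.407) did not pass, and neither did the difference between the TCDD effects of the genotypes (-2.68 ± 0.48, SE; 95% interval -3.75 to -1.60; adjusted p = 0.073).

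The calls on Cish sat close to the threshold. Under corn oil the knockout difference lost its call when any of 3 arrays was left out, namely replicate 1 (adjusted p = 0.0882) or 2 (0.0996) of wild-type corn oil or replicate 2 of knockout corn oil (0.0816), while its size stayed between 2.17 and 2.60. The difference between knockout TCDD and wild-type corn oil lost its call without any of the 3 wild-type corn oil arrays or without knockout TCDD replicate 2 or 3, at sizes of 1.44 to 1.93. The wild-type TCDD effect on Cish was called in 3 fits that left out an array of other groups, namely knockout corn oil replicate 1 (adjusted p = 0.0442), knockout TCDD replicate 1 (0.0394) and knockout TCDD replicate 2 (0.0306). The difference between the TCDD effects was called without knockout corn oil replicate 3 (adjusted p = 0.0443) or knockout TCDD replicate 2 (0.0312). With the clock index in the model, TCDD minus corn oil for Cish in the wild-type was 1.53 and called (adjusted p = 0.0199), and the corn oil difference between genotypes was 1.40 and not called (adjusted p = 0.0892). When only the compared groups were fitted, the adjusted p of Cish was 0.0565 for the wild-type TCDD effect, 0.0902 for the corn oil difference and 0.0799 for knockout TCDD against wild-type corn oil, so that none was called.

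Socs2, the SOCS protein whose loss gives oversized mice, was highest in knockout corn oil livers and varied widely. It read 8.89, 10.70 and 9.63 in knockout TCDD livers, against 12.64, 12.07 and 10.06 in knockout corn oil livers. It read 10.54, 9.55 and 9.80 in wild-type TCDD livers, against 9.18, 10.11 and 7.72 in wild-type corn oil livers. Knockout corn oil replicates 1 and 2 stood above all other arrays, while replicate 3 lay within the range of the other groups. Under corn oil the knockout minus wild-type difference was 2.59 ± 0.76 (SE; 95% interval 0.90 to 4.27; adjusted p = 0.104). TCDD minus corn oil was -1.85 ± 0.76 in the knockout (adjusted p = 0.188) and 0.96 ± 0.76 in the wild-type (adjusted p = 0.86), and the difference between these effects was -2.81 ± 1.07 (adjusted p = 0.261), all with SE. Knockout TCDD minus wild-type corn oil was 0.74 ± 0.76 (SE; adjusted p = 0.677). None passed the test. Without knockout corn oil replicate 3 the corn oil difference was 3.35 (adjusted p = 0.0242) and the TCDD effect in the knockout -2.62 (adjusted p = 0.0498), both called.

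Socs3, which blocks JAK kinases at the IL-6 receptor and is switched on by STAT3, was lowest in wild-type corn oil livers. It read 8.52, 9.21 and 9.07 in knockout TCDD livers, 8.89, 8.33 and 8.80 in knockout corn oil livers, 8.53, 8.68 and 8.54 in wild-type TCDD livers and 7.91, 7.66 and 8.21 in wild-type corn oil livers. On this probe set, as for Cish, every array of the other groups was above every wild-type corn oil array. Only the comparison of knockout TCDD with wild-type corn oil passed (1.01 ± 0.21, SE; 2.01-fold; 95% interval 0.55 to 1.47; adjusted p = 0.0355). It lost its call without any single array of wild-type TCDD, without wild-type corn oil replicate 1 or 2 and without knockout TCDD replicate 2 or 3 (adjusted p up to 0.142, sizes 0.87 to 1.01 in these fits), and when only the compared groups were fitted (adjusted p = 0.105). The knockout minus wild-type difference under corn oil was 0.75 ± 0.21 (SE; adjusted p = 0.0912) and the TCDD effect in the wild-type 0.66 ± 0.21 (SE; adjusted p = 0.517).

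A dimmer probe set of Socs3 gave a partly different picture. It read 6.48, 7.11 and 6.86 in knockout TCDD livers, against 6.18, 5.76 and 5.81 in knockout corn oil livers, a difference of 0.90 ± 0.23 (SE) that passed the test (adjusted p = 0.0476). The brighter probe set gave 0.26 ± 0.21 (SE) for the same comparison, which did not pass (adjusted p = 0.522). In wild-type livers the dimmer probe set read 5.81, 5.72 and 5.64 with TCDD, against 5.18, 5.18 and 5.97 with corn oil. Its wild-type corn oil arrays thus overlapped with those of wild-type TCDD and of knockout corn oil, unlike on the brighter probe set. Both probe sets were called higher in knockout TCDD than in wild-type corn oil livers, the dimmer by 1.37 ± 0.23 (SE; adjusted p = 0.0129).

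Socs1, the interferon-induced member of the family, moved least. It read 8.16, 8.37 and 8.41 in knockout TCDD livers, 8.18, 8.35 and 8.32 in knockout corn oil livers, 8.17, 8.19 and 8.13 in wild-type TCDD livers and 8.12, 7.99 and 8.09 in wild-type corn oil livers. Wild-type corn oil was again below every array of the other groups, but by small amounts. The differences from wild-type corn oil were 0.25 in knockout TCDD (adjusted p = 0.18), 0.22 in knockout corn oil (0.197) and 0.10 in wild-type TCDD livers (0.884), each with SE 0.08, and none passed.

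Bcl6, the repressor that STAT5 holds down, had the opposite pattern. It read 9.72, 8.51 and 7.94 in knockout TCDD livers, 8.56, 8.03 and 9.53 in knockout corn oil livers, 10.28, 8.47 and 8.79 in wild-type TCDD livers and 10.85, 10.88 and 10.58 in wild-type corn oil livers. The wild-type corn oil arrays were close together and above every other array, whereas each of the other groups spread over at least 1.5 log2 units. Against wild-type corn oil, Bcl6 was -2.05 ± 0.56 in knockout TCDD (adjusted p = 0.0963), -2.06 ± 0.56 in knockout corn oil (adjusted p = 0.0862) and -1.59 ± 0.56 in wild-type TCDD livers (adjusted p = 0.568), all with SE, and none passed. The TCDD effect in the knockout was 0.02 ± 0.56 (SE; 95% interval -1.23 to 1.26), an interval wide enough to hold a change of either sign. Without knockout corn oil replicate 3 the corn oil difference between genotypes was -2.48 and called (adjusted p = 0.0377).

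The plot of pairs shows how Cish and Bcl6 run against each other across the arrays. Pearson's r was -0.79 over the 12 arrays, as a description of points that fall into a wild-type corn oil cluster and the rest, and -0.37 once each group's mean was removed. Socs2 and Stat5b had r = -0.72 over the 12 arrays and -0.68 within groups, with knockout corn oil replicates 1 and 2 at one end. Igfals and Igf1 had r = 0.58 over the 12 arrays and 0.81 within groups, although the knockout TCDD array with the highest Igf1 had the lowest Igfals of its group. All points share the normalization of their array.

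**Figure D2:**
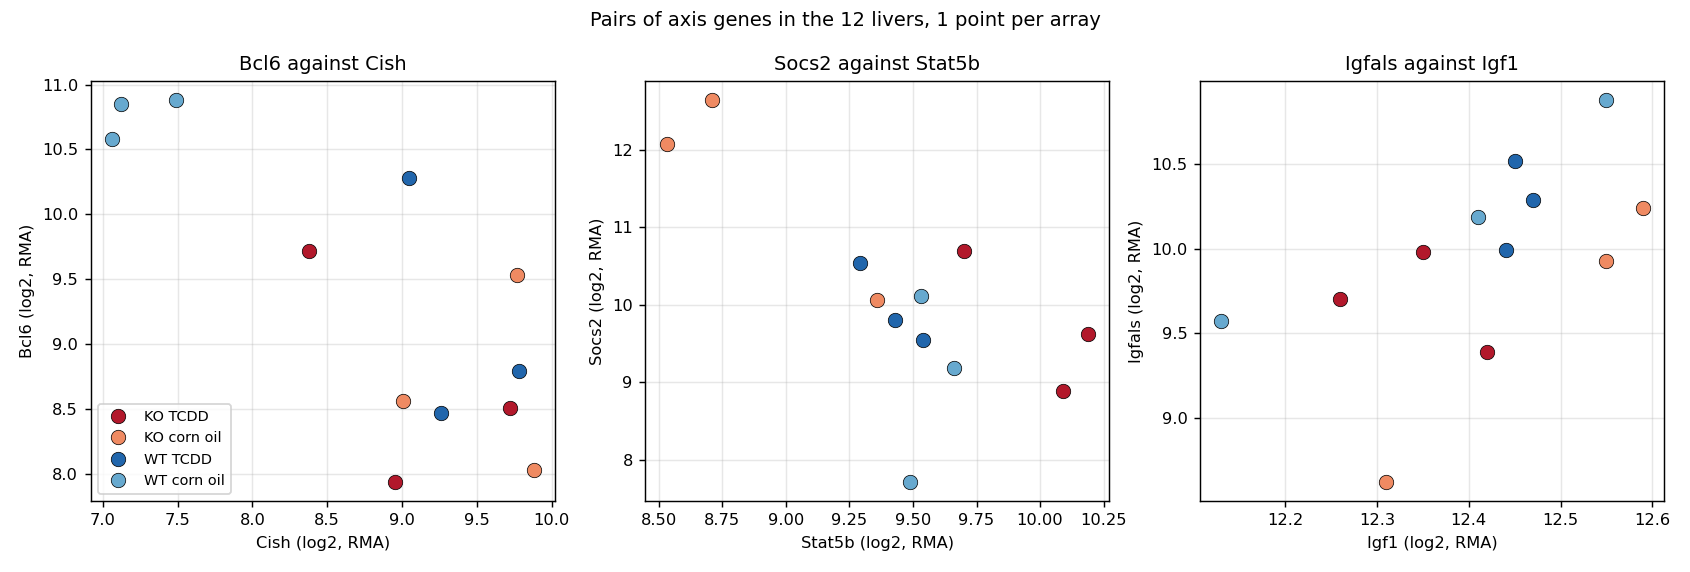
Log2 expression (RMA) of 2 genes plotted against each other, 1 point for each of 12 arrays, coloured by group; Bcl6 against Cish at left, Socs2 against Stat5b in the middle and Igfals against Igf1 at right. The 3 wild-type corn oil arrays sit apart at low Cish and high Bcl6, and knockout corn oil replicates 1 and 2 at low Stat5b and high Socs2.

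Igf1, the growth factor that carries much of the effect of growth hormone, was called in none of the 6 comparisons by limma, and none reached an unadjusted p under 0.05. It read 12.35, 12.42 and 12.26 in knockout TCDD livers, 12.31, 12.55 and 12.59 in knockout corn oil livers, 12.44, 12.45 and 12.47 in wild-type TCDD livers and 12.41, 12.55 and 12.13 in wild-type corn oil livers. With TCDD the knockout arrays were all below the wild-type arrays, by -0.11 ± 0.11 (SE; 95% interval -0.36 to 0.14; adjusted p = 0.756). The TCDD effects were -0.14 in the knockout (95% interval -0.39 to 0.11) and 0.09 in the wild-type (95% interval -0.16 to 0.34).

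Igfals, the acid-labile subunit that holds IGF1 in its circulating complex, was spread over a wider range. It read 9.98, 9.39 and 9.70 in knockout TCDD livers, 8.62, 9.93 and 10.24 in knockout corn oil livers, 9.99, 10.52 and 10.29 in wild-type TCDD livers and 10.19, 10.88 and 9.57 in wild-type corn oil livers. With TCDD all knockout arrays were below all wild-type arrays, though knockout replicate 1 and wild-type replicate 1 were 0.01 apart, and the difference of -0.58 ± 0.42 (SE; 95% interval -1.51 to 0.36) did not pass (adjusted p = 0.642). The TCDD effects were 0.09 ± 0.42 in the knockout and 0.05 ± 0.42 in the wild-type, both with SE (adjusted p = 0.929 and 0.99).

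Igfbp1, a binding protein that sequesters IGF1 and that insulin represses through FOXO1, was high in knockout TCDD livers. It read 12.54, 12.46 and 12.53 there, against 10.44, 8.48 and 10.64 in knockout corn oil livers, a rise of 2.66 ± 0.60 (SE; 6.31-fold; 95% interval 1.32 to 3.99; adjusted p = 0.032). In wild-type livers it read 11.67, 11.20 and 9.69 with TCDD, against 10.31, 10.86 and 9.90 with corn oil, which overlap, and the difference of 0.50 ± 0.60 (SE) did not pass (adjusted p = 0.93). The knockout TCDD arrays lay within 0.08 of each other and above all 9 other arrays. Against wild-type corn oil they were higher by 2.15 ± 0.60 (SE; adjusted p = 0.101) and against wild-type TCDD by 1.66 ± 0.60 (SE; adjusted p = 0.324), and the difference between the TCDD effects was 2.16 ± 0.85 (SE; 95% interval 0.27 to 4.05; adjusted p = 0.274). None of these passed in the main fit. The difference from wild-type corn oil was called without knockout corn oil replicate 2 (adjusted p = 0.0449). It was also called when only the compared groups were fitted (2.15 ± 0.23, SE; adjusted p = 0.0193). The rise in the knockout lost its call without knockout corn oil replicate 2 (1.97; adjusted p = 0.0784), without any single knockout TCDD array (adjusted p = 0.0626 to 0.0991), without replicate 1 of wild-type corn oil (adjusted p = 0.0508) when only the knockout arrays were fitted (adjusted p = 0.101) and with the clock index as a covariate (2.01; adjusted p = 0.2).

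**Figure D3:**
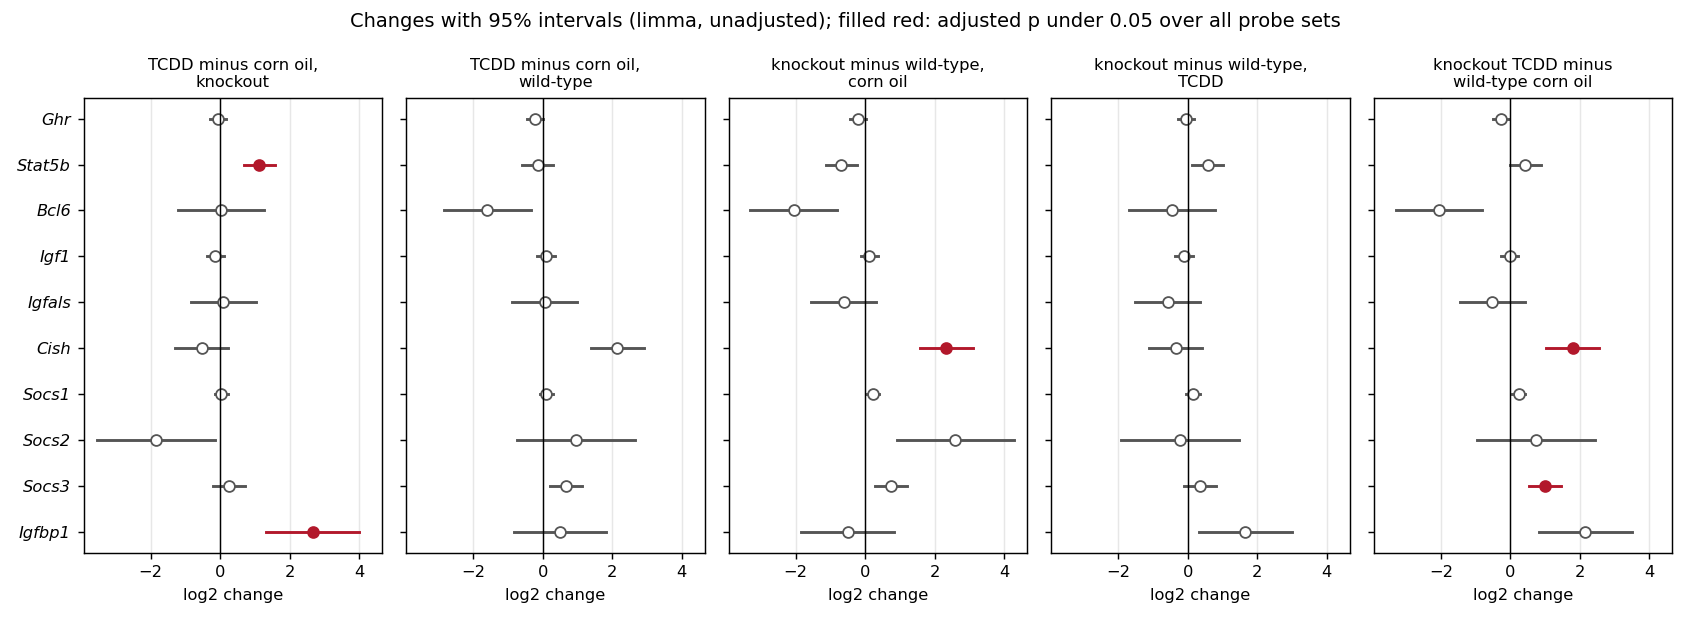
Log2 changes of the 10 genes (rows) in 5 comparisons (panels), with unadjusted 95% intervals from limma; filled red points passed an adjusted p below 0.05 over all probe sets. Stat5b and Igfbp1 pass for TCDD in the knockout, Cish for knockout against wild-type under corn oil, and Cish and Socs3 for knockout TCDD against wild-type corn oil.

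Counted over the 10 genes, calls were few, and all were in the upward direction. For TCDD in the knockout 2 of 10 were called, Stat5b and Igfbp1, against 5.58% of all 23332 probe sets called and 2.21% called higher. For the same comparison 3 of 10 had an unadjusted p under 0.05, against 22.1%, and 2 of 10 had arrays that did not overlap, against 23.5%, so the members stood near the background there.

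For TCDD in the wild-type 0 of 10 were called by limma, against 0.116% called, all of them higher, while 3 of 10 had an unadjusted p under 0.05, against 7.28%, and 4 of 10 did not overlap, against 13.7%. For the knockout against the wild-type under corn oil 1 of 10 was called, Cish, against 1.96% called and 1.23% called higher. In that comparison 6 of 10 had an unadjusted p under 0.05, against 19.3%, and 5 of 10 did not overlap, against 21.8%.

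Under TCDD 0 of 10 differed between the genotypes by limma, against 0.24% called and 0.223% called higher, with 2 of 10 at an unadjusted p under 0.05, against 11.9%, and 4 of 10 not overlapping, against 18.3%. For the difference between the TCDD effects 0 of 10 were called by limma, against 0.159% called and 0.107% called higher, and 4 of 10 had an unadjusted p under 0.05, against 14.8%. For knockout TCDD against wild-type corn oil 2 of 10 were called, Cish and Socs3, against 2.28% called and 1.34% called higher. There 6 of 10 had an unadjusted p under 0.05, against 16.2%, and 7 of 10 did not overlap, against 23.9%.

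Other genes of the pathway were taken from gene lists. Among 13 measured genes of growth hormone receptor signalling, 1 was called under TCDD in the knockout, the phosphatase gene Ptpn2, which acts on JAK and STAT proteins, and 1 under corn oil, Stat5a. Over all genes 6.48% were called for TCDD in the knockout and 2.32% for the knockout under corn oil. Ptpn2 fell to 7.70, 8.35 and 7.86 in knockout TCDD livers, against 9.62, 8.84 and 8.65 in knockout corn oil livers (-1.07 ± 0.23, SE; adjusted p = 0.0281), and read 8.06 to 8.38 in the wild-type groups. The knockout corn oil arrays of Ptpn2 were thus the high ones, and knockout TCDD minus wild-type corn oil was -0.35 ± 0.23 (SE; adjusted p = 0.499). The median change of the list was -0.11 under TCDD in the knockout and 0.07 for the knockout under corn oil, against -0.04 and 0.03 over all genes. None of 4 other SOCS family genes, Socs4 to Socs7, was called in any of the 6 comparisons by limma, with medians between -0.11 and 0.11.

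Among 14 measured genes of the IGF system, a list of other IGF binding proteins, Igf2, the receptors and their adaptors, 1 was called, in 1 comparison. This was Klb, a list member that is not an IGF gene but the co-receptor of FGF21, which rose under TCDD in the knockout by 2.65 ± 0.48 (SE; adjusted p = 0.0137). It read 10.58, 11.23 and 10.82 in knockout TCDD livers, against 7.18, 8.18 and 9.31 in knockout corn oil livers. In wild-type livers Klb read 10.16, 10.30 and 10.34 with TCDD, against 9.52, 9.33 and 8.24 with corn oil, without overlap, and the difference of 1.24 ± 0.48 (SE) did not pass (adjusted p = 0.61). The difference between these effects was 1.42 ± 0.68 (SE; adjusted p = 0.369), and knockout TCDD minus wild-type corn oil was 1.85 ± 0.48 (SE; adjusted p = 0.0835). Klb was the 1 of 14 called under TCDD in the knockout, against 6.48% of all genes. The medians of this list lay between -0.08 and 0.04 in the 6 comparisons.

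Genes that insulin and FOXO1 regulate, as they do Igfbp1, held several calls, all higher. Of 11 measured, 3 (27.3%) were called under TCDD in the knockout, against 6.48% of all genes. In knockout TCDD against wild-type corn oil 2 (18.2%) were called, against 2.83% of all genes. The medians of the list were -0.12 in both. Foxo3, a FOXO transcription factor, read 10.61, 10.74 and 10.84 in knockout TCDD livers, against 8.85, 9.57 and 9.59 in knockout corn oil livers (1.39 ± 0.22, SE; adjusted p = 0.00792), and was also higher than in wild-type corn oil livers (1.57 ± 0.22, SE; adjusted p = 0.0053). Txnip, a regulator of glucose uptake, read 11.42, 10.90 and 11.59 in knockout TCDD livers, against 10.13, 9.47 and 9.85 in knockout corn oil livers (1.49 ± 0.28, SE; adjusted p = 0.0155), and was 1.68 ± 0.28 (SE; adjusted p = 0.0129) above wild-type corn oil. Foxo3 and Txnip were high in knockout TCDD livers against both corn oil groups. TCDD minus corn oil in the wild-type was 0.55 ± 0.22 for Foxo3 (adjusted p = 0.629) and 0.20 ± 0.28 for Txnip (0.944). Between genotypes under TCDD they differed by 1.02 ± 0.22 (0.124) and 1.48 ± 0.28 (0.0783). The differences between the TCDD effects were 0.84 ± 0.31 (0.249) and 1.29 ± 0.39 (0.17). These values are with SE, and none passed the test.

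G6pc, the glucose-6-phosphatase of gluconeogenesis, read 13.52, 13.40 and 13.39 in knockout TCDD livers, against 10.98, 11.11 and 12.80 in knockout corn oil livers (1.81 ± 0.39, SE; adjusted p = 0.0271). In wild-type livers it read 12.95 to 13.48 with TCDD and 13.11 to 13.31 with corn oil. Its low values were those of the knockout corn oil arrays, and knockout TCDD minus wild-type corn oil was 0.24 ± 0.39 (SE; adjusted p = 0.803).

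**Figure D4:**
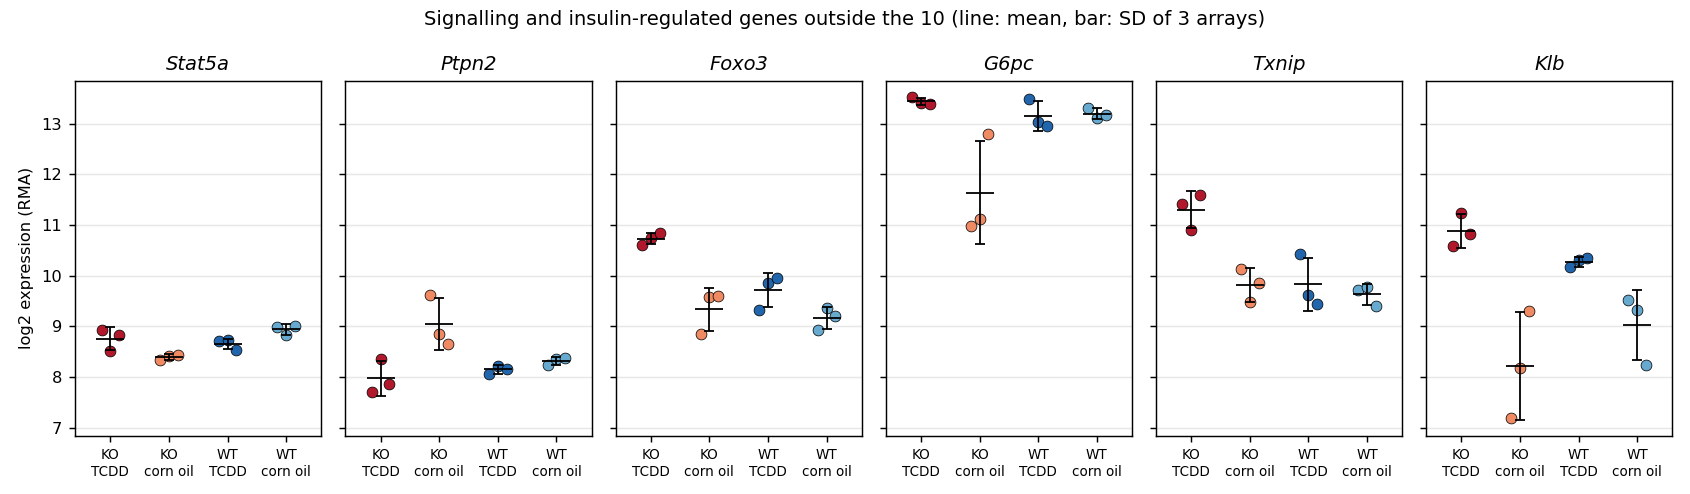
Log2 expression (y axis, RMA scale) of Stat5a, Ptpn2, Foxo3, G6pc, Txnip and Klb on each array, with knockout TCDD, knockout corn oil, wild-type TCDD and wild-type corn oil groups from left to right (x axis); lines are means and bars SDs of 3 arrays. Foxo3 and Txnip are high in knockout TCDD livers, while knockout corn oil livers hold the lowest G6pc (10.98 to 12.80) and the highest Ptpn2 (8.65 to 9.62).

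Sex-biased liver genes, whose expression depends on the growth hormone pattern, held few calls. Of 9 measured male-biased genes 0 were called in any of the 6 comparisons by limma, while only 1 of the 9 had a value above 0 in wild-type TCDD against wild-type corn oil (median -0.18), in knockout against wild-type under corn oil (median -0.22) and in knockout TCDD against wild-type corn oil (median -0.27), against medians of 0.02, 0.03 and 0.00 over all genes. These 3 comparisons share the wild-type corn oil arrays. Between genotypes under TCDD, which does not use those arrays, 1 of the 9 was also above 0 (median -0.13, against -0.03 over all genes). For TCDD in the knockout 4 of the 9 were above 0 (median -0.14, against -0.04 over all genes). Elovl3, a fatty acid elongase, read 11.56 to 12.88 in knockout TCDD, 10.83 to 12.24 in knockout corn oil and 11.56 to 13.13 in wild-type TCDD livers, against 13.14 to 13.27 in wild-type corn oil livers. It is named as the gene nearest to Bcl6 over the 12 arrays (r = 0.92) and does not stand for the list. Of 15 measured female-biased genes 2 (13.3%) were called under TCDD in the knockout, both higher, against 6.48% of all genes called. Abcd2, a peroxisomal fatty acid transporter, was higher by 2.30 ± 0.39 (SE; adjusted p = 0.0109), and the monooxygenase Fmo2 by 2.48 ± 0.55 (SE; adjusted p = 0.0298). In wild-type livers Abcd2 read 8.46, 9.28 and 8.04 with TCDD, against 6.58, 6.10 and 5.64 with corn oil, a difference of 2.49 ± 0.39 (SE) that did not pass (adjusted p = 0.0627). Fmo2 differed there by 1.75 ± 0.55 (SE; adjusted p = 0.515), with overlap. The TCDD effects of the genotypes differed by -0.19 ± 0.55 for Abcd2 (adjusted p = 0.916) and 0.73 ± 0.78 for Fmo2 (adjusted p = 0.727), with SE. In knockout TCDD against wild-type corn oil livers Abcd2 was called (3.01 ± 0.39, SE; adjusted p = 0.00344) and Fmo2 was not (2.42 ± 0.55, SE; adjusted p = 0.0525). The other 13 were not called for TCDD in the knockout, where 8 of 15 were above 0 and the median of the list was 0.01. For TCDD in the wild-type 11 of 15 were above 0 (median 0.05), and for the knockout under corn oil 12 of 15 (median 0.07). Over all genes the medians were 0.02 and 0.03. In knockout TCDD against wild-type corn oil 8 of 15 were above 0 (median 0.02). List levels were 6.03 to 6.39 in wild-type corn oil livers, against 6.78 to 6.97 in wild-type TCDD livers.

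Acute phase genes, which IL-6 switches on through STAT3 as it does Socs3, held no calls. Of 18 measured genes of this list 0 were called in any of the 6 comparisons by limma. All 18 had values above 0 for the knockout under corn oil, with a median of 0.24, against 0.03 over all genes, and 2 of 18 were above 0 for TCDD in the knockout, with a median of -0.27, against -0.04 over all genes. In knockout TCDD against wild-type corn oil 10 of 18 were above 0, with a median of 0.02.

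Markers of other cells moved in some of the same comparisons. Neutrophil markers had mean levels of 6.09 to 6.38 in knockout corn oil livers, against 5.71 to 5.95 in wild-type corn oil livers. In that comparison 2 of 9 were called higher, against 2.32% of all genes called. They were Retnlg (1.71 ± 0.35, SE; adjusted p = 0.0456) and Mmp8 (1.28 ± 0.27, SE; adjusted p = 0.047). The Kupffer cell marker Marco, 1 called of 8 measured macrophage markers, was higher there by 1.13 ± 0.20 (SE; adjusted p = 0.0351), with list levels of 9.14 to 9.48 against 8.63 to 9.27. In knockout TCDD against wild-type corn oil none of these 3 genes was called, at 0.46 for Retnlg (adjusted p = 0.557), 0.41 for Mmp8 (0.497) and 0.08 for Marco (0.876). Under TCDD in the knockout 5 of 9 endothelial markers were called lower, against 6.48% of all genes called. The list levels were 9.12 to 9.32 in knockout TCDD livers, against 9.65 to 9.78 in knockout corn oil livers. In knockout TCDD against wild-type corn oil livers 3 of 9 were called lower, against 2.83% of all genes called. With TCDD in the wild-type 0 of 9 were called by limma and 0 of 9 were above 0 (median -0.25), at list levels of 9.12 to 9.17 with TCDD, against 9.37 to 9.58 with corn oil. Of 8 stellate cell and matrix markers, 2 collagen genes were called higher in knockout TCDD than in wild-type corn oil livers. They were Col1a1 (0.40 ± 0.09, SE; adjusted p = 0.0461) and Col1a2 (0.41 ± 0.08, SE; adjusted p = 0.0276), against 2.83% of all genes called. Under TCDD in the knockout Col1a1 was the 1 of 8 called (0.35 ± 0.09, SE; adjusted p = 0.0471), against 6.48% of all genes. In each comparison 6 of the 8 were above 0, with medians of 0.25 and 0.21. Acta2 of this list went the other way in both and was not called. It averaged 7.20 in knockout TCDD livers, against 7.89 in knockout corn oil and 7.85 in wild-type corn oil livers. Lymphocyte markers had 0 of 10 called in these comparisons by limma, and markers of pancreas and fat stayed at 5.55 to 5.73 on every array, with Adipoq at 3.15 to 3.52. The part of these cells, and of the clock genes given above, in the results for Cish, Socs2, Socs3, Stat5b, Bcl6 and Igfbp1 was not tested beyond the fits with the clock index.

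The genes whose pattern over the 12 arrays was most like that of each member were found by Pearson's r among all 14860 genes, as a description that shares arrays and groups. Cish was nearest to the retinol binding protein gene Rbp2 (r = 0.89), Cd248 and Edil3 (both 0.89). Bcl6 was nearest to Elovl3 (0.92), Qdpr (0.89) and Mlxipl (0.88), the transcription factor that responds to glucose. Stat5b was nearest to the water channel gene Aqp8 (0.96), Tspan18 (0.95) and Stard13 (0.94), and Socs3 to the galectin gene Lgals3 (0.97), the connexin gene Gjb2 (0.96) and Gtf2b (0.93). Igfbp1 was nearest to Matk (0.93), Ppm1j (0.92) and Id4 (0.90), and Socs2 to Zscan21 (0.92), Surf6 (0.90) and Luc7l (0.89). Igfals was nearest to Stard5 (0.92). Among the steadier genes, Ghr was nearest to Neu2 (0.94), Igf1 to Hsd17b6 (0.91) and Socs1 to Rab35 (0.90). No other member was among the 3 nearest genes of any member.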

How the data were processed

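Liver RNA of 12 mice was hybridised to Affymetrix GeneChip Mouse Exon 1.0 ST arrays, per the labels' protocols. The deposited values are log2 expression levels, 1 per probe set and array, made by the authors with RMA in Affymetrix Expression Console (build mm9, per the submitters' processing notes). Software versions and probe set level: not given in the sources used here. They ran from 1.05 to 14.16 and were used as deposited. The platform annotation gave 1 symbol to 14996 of 23332 probe sets.

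A group-means model on all 12 arrays was fitted with limma 3.58.1 in R 4.3.3 (8 residual and 2.19 prior degrees of freedom), with 6 contrasts. Benjamini-Hochberg adjustment ran over all probe sets of a contrast, and a call was an adjusted p below 0.05; all adjusted p-values are limma's. SE is from limma, SD from 3 arrays, and the number of arrays limits the precision. The labels call the arrays biological replicates. The fit was tested on simulated data. Alternatives were 12 changes of setting and leaving out each array. The 10 genes, the 17 other lists and the rule for naming genes (all 10 genes, up to 4 called genes per list and comparison, the 3 most alike genes) were chosen with earlier results of these data known. No arrays were left out, and 1 of the lists is not reported here.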

Additional observations from a re-analysis of the deposited data

How the results depend on the processing

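Of the 10 genes, 0 were called for TCDD in the wild-type, but 1 (Cish) with the replicate block, quantile normalization, the lowest 25% of probe sets dropped, only probe sets with 1 symbol, array weights or the clock index. For TCDD in the knockout the count of 2 became 3 with the dimmer Socs3 probe set, 1 with the replicate block and 0 with only the compared arrays, an adjusted p below 0.01 or the clock index. For the genotypes under corn oil the count of 1 became 0 with only the compared arrays, the replicate block, an adjusted p below 0.01 or the clock index, and 4 with array weights. For the difference between the TCDD effects 0 became 1 with the lowest 25% dropped or only probe sets with 1 symbol and 2 with array weights. For knockout TCDD against wild-type corn oil 2 became 1 with the replicate block, which was Cish. With only the compared arrays it also became 1, but Cish and Socs3 were both lost and Igfbp1 was called (limma adjusted p = 0.0193). The count was 0 at an adjusted p below 0.01 and 4 with array weights. Under TCDD the genotypes gave 0 in every setting. Leaving out 1 array gave 0 to 1, 0 to 3, 0 to 4, 0 to 2 and 0 to 3 calls in these 5 comparisons.

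With replicate number as a block, Cish was called for TCDD in the wild-type (adjusted p = 0.0401) but not for the knockout under corn oil (0.0606), Igfbp1 was not called for TCDD in the knockout (0.0576) nor Socs3 for knockout TCDD against wild-type corn oil (0.0657), and no other call on the 10 genes changed. Same-numbered arrays of different groups had deviations correlated at a median r of -0.03 (-0.21 to 0.11). These correlations run over all probe sets, so they do not decide whether the numbers pair the mice for single genes. With the block the SE of Cish was 0.25, against 0.34 without it, while that of Igfbp1 was 0.62, against 0.60.

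The sign differed from the reported value in 41 gene results, of which 0 were called. For TCDD in the knockout these were Igfals (-0.075) and Bcl6 (-0.0018) with array weights, and Ghr (0.11), Cish (0.25), Igf1 (0.016) and Bcl6 (-0.22) with the clock index. With the clock index they were also Igf1 (-0.031) and Igfals (-0.29) for TCDD in the wild-type, Igf1 (-0.065) and Igfbp1 (0.26) for the genotypes under corn oil, Ghr (0.052) and Cish (0.12) for the genotypes under TCDD, and Socs1 (0.030) and Igf1 (0.047) for the difference between the TCDD effects. That difference was also opposite for Socs1 with quantile normalization (0.051), Igfals with array weights (-0.075) and Socs3 with its dimmer probe set (0.62). The cause was not tested. Leaving out 1 array gave ranges across 0 for TCDD in the knockout of Ghr (-0.14 to 0.033), Socs1 (-0.022 to 0.11), Igfals (-0.40 to 0.42) and Bcl6 (-0.48 to 0.43), and for TCDD in the wild-type of Igf1 (-0.027 to 0.18) and Igfals (-0.27 to 0.39). Between genotypes under TCDD such ranges were those of Ghr (-0.075 to 0.01), Socs2 (-0.70 to 0.20) and Bcl6 (-0.96 to 0.093), and under corn oil that of Igfbp1 (-0.90 to 0.18). For the difference between the TCDD effects they were Socs1 (-0.12 to 0.01) and Igfals (-0.45 to 0.36), and for knockout TCDD against wild-type corn oil Igf1 (-0.14 to 0.073). Signal over background was not analysed here, and 3 arrays a group limit the precision.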
